A study of Mus musculus with 16 samples.

Results

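The 9 genes described here mark excitatory neurons of the cortex and the layers they lie in, and they were followed by Iso-seq, PacBio sequencing of whole cDNA molecules as long reads, in mouse brain. They were chosen by name, as all isoform rows assigned to Slc17a7, Nrgn, Rasgrf2, Neurod2, Neurod6, Cux2, Rorb, Tbr1 and Fezf2, which makes 9 of the 21627 genes with at least 1 read. The groups were the cortex and the striatum of male mice aged 3 months, either transgenic R6/2 mice or non-transgenic (NT) mice, with 4 samples in each of the 4 groups and 16 samples in all. R6/2 mice model Huntington's disease through a transgene of exon 1 of human HTT with an expanded CAG repeat, under the human HTT promoter, and NT mice carry no such transgene. The transgene is broadly expressed, so a change in a region cannot be assigned to a cell type of that region. Each value is from bulk tissue, in which fewer cells of a type and less RNA per cell cannot be told apart. No source used here ties a cortical to a striatal sample of 1 mouse, and the p-values measure the spread between these samples.

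Cortical excitatory neurons release glutamate, send axons to other areas of the brain and lie in layers with distinct targets. Cells of the upper layers mostly project within the cortex, layer 5 cells project to the striatum, brainstem and spinal cord, and layer 6 cells project to the thalamus. The striatum instead is made mostly of GABAergic projection neurons, which receive the glutamatergic input of the cortex and are the neurons most affected in Huntington's disease. Slc17a7 (VGLUT1) loads glutamate into synaptic vesicles, Nrgn (neurogranin) binds calmodulin in dendritic spines, and Rasgrf2 is an exchange factor for Ras that marks upper layers. Neurod2 and Neurod6 are basic helix-loop-helix transcription factors of maturing and mature excitatory neurons. Cux2 marks layers 2 to 4 and Rorb layer 4, Tbr1 marks layer 6, and Fezf2 directs the fate of layer 5 neurons, and all of these are transcription factors. Neurogranin is not restricted to the cortex and is also made by striatal projection neurons.

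The genes were sparsely read. Cortical samples held 252885 to 808814 reads and striatal samples 317050 to 1496196, and the 9 genes together had 2087 gene reads over the 16 samples. Gene reads are the sum of known isoforms, incomplete splice matches (ISM, which hold part of the junctions of an annotated transcript) and isoforms outside the annotation, made of annotated (NIC) or unannotated (NNC) splice sites. Nrgn held 1275 of them, Neurod6 303, Slc17a7 109, Tbr1 100, Neurod2 91, Rorb 88, Fezf2 74, Cux2 26 and Rasgrf2 21. Levels are given as CPM (counts per 1e+06 reads), reads scaled to the normalized library, and a count of 0 allows up to 3 reads, which is between 2.43 and 15.3 CPM depending on the sample. These limits cover counting error only. In the striatum 2 sets of counts were given for NT 1 and 2 and for R6/2 2 and 3, and these were summed, whereas all other samples had 1 set. The sources used here do not say how the sets differ. The regions showed their own cell types. All 10 markers of striatal projection neurons were higher in the striatum than in the cortex in both genotypes, at a summed 10641 to 14473 CPM in NT striatum and 391 to 497 CPM in NT cortex.

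The regions before the start sites of 4 of the genes are shown because their levels divide the set, with Slc17a7, Neurod2 and Neurod6 lower in the striatum and Nrgn not. Each sequence is the 250 bases before a RefSeq start (GRCm38.p6), 5′ to 3′ on the strand of the gene, at chr7:45163671-45163920 (plus strand) for Slc17a7, chr6:55681264-55681513 (minus strand) for Neurod6, chr11:98329646-98329895 (minus strand) for Neurod2 and chr9:37552746-37552995 (minus strand) for Nrgn. Capitals mark CAGATG, the E-box letters bound by NeuroD factors, and GGGCGG, the GC box, each searched on both strands.
Slc17a7: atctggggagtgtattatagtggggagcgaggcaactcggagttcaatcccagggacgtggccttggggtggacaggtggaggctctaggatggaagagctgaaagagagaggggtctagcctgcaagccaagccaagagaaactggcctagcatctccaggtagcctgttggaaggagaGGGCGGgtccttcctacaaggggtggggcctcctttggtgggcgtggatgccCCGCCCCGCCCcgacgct
Neurod6: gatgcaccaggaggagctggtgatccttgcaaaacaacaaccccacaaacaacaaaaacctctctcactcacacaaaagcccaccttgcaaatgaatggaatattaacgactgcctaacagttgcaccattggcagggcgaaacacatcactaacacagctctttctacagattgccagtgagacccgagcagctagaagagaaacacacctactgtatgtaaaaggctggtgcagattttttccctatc
Neurod2: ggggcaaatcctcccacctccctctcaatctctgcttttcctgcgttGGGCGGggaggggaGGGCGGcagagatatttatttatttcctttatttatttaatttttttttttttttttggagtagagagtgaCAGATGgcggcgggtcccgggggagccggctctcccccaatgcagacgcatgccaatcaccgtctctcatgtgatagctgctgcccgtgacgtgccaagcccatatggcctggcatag
Nrgn: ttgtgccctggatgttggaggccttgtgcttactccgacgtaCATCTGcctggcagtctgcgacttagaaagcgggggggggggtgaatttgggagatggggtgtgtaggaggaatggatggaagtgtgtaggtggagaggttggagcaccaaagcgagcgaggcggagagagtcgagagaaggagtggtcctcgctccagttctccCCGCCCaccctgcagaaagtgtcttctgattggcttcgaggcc
The NeuroD letters were in 3 of the 9 windows, those of Neurod2, Cux2 and Nrgn, and in 14.4% of all 32851 RefSeq windows of this length. The GC box was in 6 of the 9 and in 32.7% of all, with 3 matches at Slc17a7, of which 2 overlap by a base, 2 at Neurod2, 1 at Nrgn and none at Neurod6. The general E-box CANNTG, which includes CAGATG, was in 7 of the 9 windows and in 66.2% of all, and AGGTCA, the letters bound by ROR receptors, was in none of the 9 and in 14% of all. The windows of Nrgn and Fezf2 reach 159 and 94 bases into their most read known isoforms, and the marked Nrgn GC box lies in that part. The start used for Cux2 lies 181762 bases from that of its most read known isoform, a short form with 2 reads in all. The annotated 5′ end of Cux2 is at 122050102 on the minus strand, near its window at 122047826-122048075. A match is a run of letters and was not tested for binding.

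Reading of the 9 genes by class of isoform showed how little of most of them was read as complete transcripts. Over all genes, 70.6% of the reads of these classes and the genomic class were of known isoforms and 7.81% were of the genomic class, which holds reads that overlap a gene without matching its splice junctions and is left out of gene reads. Neurod6 (chr6:55677822-55681263, minus strand, mm10) was read almost only as its known isoform of 2 exons and 2150 nt, at 90.4% of its reads. Nrgn (chr9:37544492-37552904, minus strand) was mostly read as its known isoform of 4 exons and 1453 nt, at 66.5%. In contrast, 31.4% of Slc17a7 reads (chr7:45163949-45176142, plus strand) were ISM and 59.8% genomic, and 7.01% were known.

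**Figure D1:**
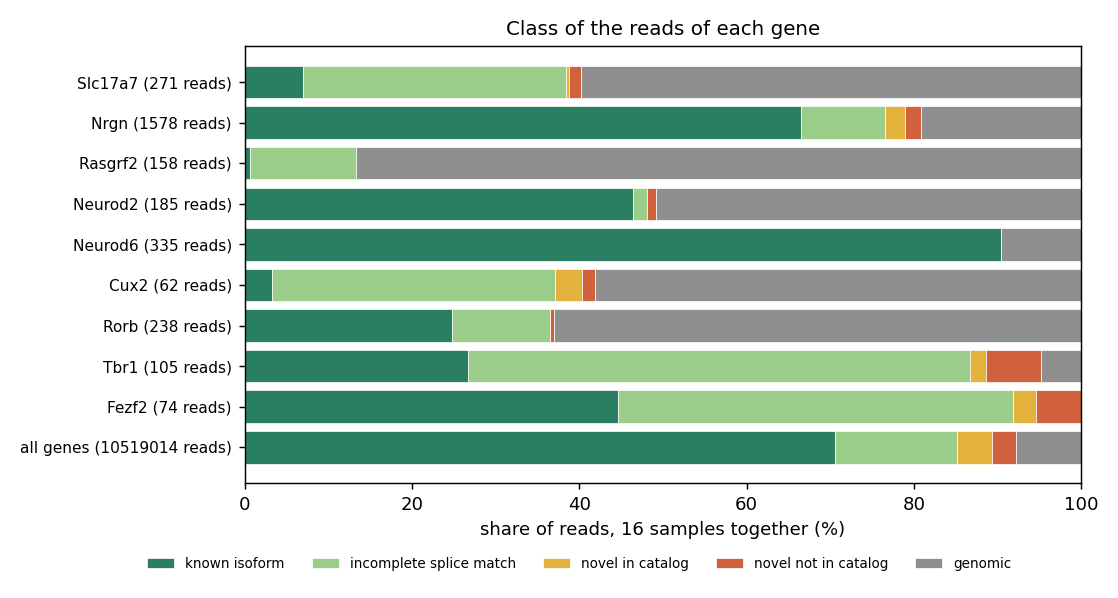
Share of reads (%, x axis) of each gene by class of isoform, over the 16 samples together, with the number of reads beside each name. Known isoforms held 90.4% of Neurod6 reads, whereas the genomic class held 86.7% of Rasgrf2 reads against 7.81% over all genes.

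Many reads of the genomic class were of 1 unspliced form per gene. For Slc17a7, 1 unspliced form of 2142 nt held 162 reads, more than the 109 gene reads, with 76 in NT and 67 in R6/2 cortex, 4 in NT striatum and 15 in R6/2 striatum. For Rasgrf2 (chr13:91880400-92131656, minus strand), 1 unspliced form of 3093 nt held 109 of the 158 reads, against 21 gene reads. Neurod2 (chr11:98325415-98329648, minus strand), whose known isoform has 2 exons and 3142 nt, had 86 known reads and an unspliced form of 2080 nt with 75 reads. The genomic class held 63.0% of Rorb reads (chr19:18930605-19111196, minus strand) and 58.1% of Cux2 reads (chr5:121856366-122050102, minus strand), 4.76% of Tbr1 reads (chr2:61802930-61814114, plus strand) and none of Fezf2 reads (chr14:12342094-12348189, minus strand). Isoform shares of these genes therefore rest on few reads. The known isoform of Rorb has 10 exons and 9293 nt and had 59 reads, the known Fezf2 isoform of 5 exons and 2304 nt had 33, and the known Tbr1 isoform of 6 exons and 3977 nt had 26, fewer than the 38 reads of a single-exon ISM of 2532 nt.

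Whether the genes differ between the regions was asked first in NT mice. Slc17a7, Neurod6 and Neurod2 were lower in the striatum, by 5.93-, 7.57- and 14.7-fold, and these were 3 of the 5 genes that passed the filter on low counts. Over all 7390 genes tested, 17.6% were called lower in the NT striatum. These were 1302 genes, with 1165 higher, against 999 lower and 1297 higher by DESeq2, and 717 of 7827 were lower without NT cortex 2. The other genes that passed were Tbr1 and Nrgn. Of the 5, only Nrgn passed in the striatal samples alone, so the rest passed through their reads in the cortex. A gene that enters in this way can hardly be called higher in the striatum, so 3 of 5 cannot be weighed against 17.6%. Cux2, Rorb, Fezf2 and Rasgrf2 did not pass and are given from a fit without the filter.

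Among the genes of the synapse, Slc17a7 stood at 36.7, 29.2, 15.3 and 28.2 CPM in NT cortex 1 to 4 and at 10.5, 6.49, 1.64 and 0 CPM in NT striatum 1 to 4. The R6/2 samples stood at 17.2, 17.0, 23.1 and 19.2 CPM in the cortex and at 6.08, 1.08, 2.12 and 2.46 CPM in the striatum. All 8 cortical samples lay above all 8 striatal samples. The log2 fold change of striatum against cortex was -2.57 (SE 0.63, adjusted p = 0.003, edgeR's quasi-likelihood test) in NT mice and -3.02 (SE 0.64, adjusted p = 0.0011) in R6/2 mice. Without NT striatum 3 the change in NT mice was -1.64 (adjusted p = 0.14). With the unspliced reads of the genomic class added, Slc17a7 had a mean of 75.7 ± 28.1 CPM in NT cortex and 6.25 ± 3.26 CPM in NT striatum (SD, n = 4), and its log2 fold change was -3.45 (SE 0.47, adjusted p = 3.3e-06).

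Nrgn did not share this pattern. It stood at 299.0, 204, 76.3 and 226 CPM in NT cortex 1 to 4 and at 84.1, 132, 200.3 and 356 CPM in NT striatum 1 to 4, so the regions overlapped throughout. The log2 fold change in NT mice was 0.21 (SE 0.31, adjusted p = 0.64, 95% interval -0.44 to 0.86). This is fitted at 1 set of counts, whereas the group means over both numbers of sets were 201 CPM in NT cortex and 193 CPM in NT striatum. In R6/2 mice the change was -0.53 (SE 0.33, adjusted p = 0.24, 95% interval -1.21 to 0.15). In R6/2 cortex 1 to 4 the level was 155, 159, 188 and 96.2 CPM and in R6/2 striatum 1 to 4 it was 79.0, 49.7, 67.8 and 108 CPM, with R6/2 cortex 4 below R6/2 striatum 4. The level in the striatum averaged 95.8% ± 58.8 of the cortex in NT mice and 51.0% ± 16.4 in R6/2 mice (SD over 4 striatal samples). The test of the difference between these changes is given with the genotype comparisons.

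Rasgrf2 had 0 to 3 gene reads per sample. It had 8 reads in NT cortex, 5 in R6/2 cortex, 6 in NT striatum and 2 in R6/2 striatum, and no difference between regions was detectable at this depth (log2 fold change -2.13, SE 1.32, adjusted p = 0.40 in NT mice, without the filter). With the genomic class added, its mean was 40.1 ± 10.8 CPM in NT cortex, 16.1 ± 5.62 CPM in R6/2 cortex, 12.6 ± 1.81 CPM in NT striatum and 7.18 ± 4.35 CPM in R6/2 striatum (SD, n = 4). On that scale Rasgrf2 was lower in the NT striatum than in the NT cortex, by 1.34 on the log2 scale (SE 0.41, adjusted p = 0.013), and in R6/2 mice the change was -1.10 (SE 0.45, adjusted p = 0.076), which was not called.

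The NeuroD factors were lower in the striatum in both genotypes. Neurod6 stood at 62, 78.6, 96.6 and 70.6 CPM in NT cortex 1 to 4 and at 13.1, 6.49, 4.93 and 0 CPM in NT striatum 1 to 4. Its R6/2 levels were 49.7, 67.9, 85.2 and 67.3 CPM in the cortex and at 10.6, 7.57, 2.12 and 24.6 CPM in the striatum. No striatal sample reached the lowest cortical one. Neurod6 changed, striatum against cortex, by a log2 fold of -2.92 (SE 0.52, adjusted p = 0.00013) in NT mice and -2.56 (SE 0.45, adjusted p = 0.00021) in R6/2 mice. Its gene reads ran from 19 to 59 in the cortical samples and from 0 to 10 in the striatal samples.

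Neurod2 stood at 28.2, 24.7, 5.08 and 24.2 CPM in NT cortex 1 to 4 and at 5.26, 1.62, 0 and 0 CPM in NT striatum 1 to 4. R6/2 samples had 17.2, 27.6, 21.7 and 14.4 CPM in the cortex and at 3.04, 4.32, 1.06 and 2.46 CPM in the striatum. The regions were apart in R6/2 mice, and in NT mice only NT cortex 3, with 1 read, lay below a striatal sample. For Neurod2 the log2 fold change was -3.88 (SE 0.81, adjusted p = 0.00073) in NT mice and -3.35 (SE 0.72, adjusted p = 0.0014) in R6/2 mice. Neurod6 and Neurod2 were called lower in the striatum in both genotypes under all 25 alternatives tried. The alternatives reuse the same reads, so they are not separate support. The size was less certain. In NT mice the log2 fold change ran from -6.36 to -3.11 for Neurod2, which had 6 reads in NT striatum with 2 of the 4 samples at 0, and from -4.25 to -2.23 for Neurod6.

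**Figure D2:**
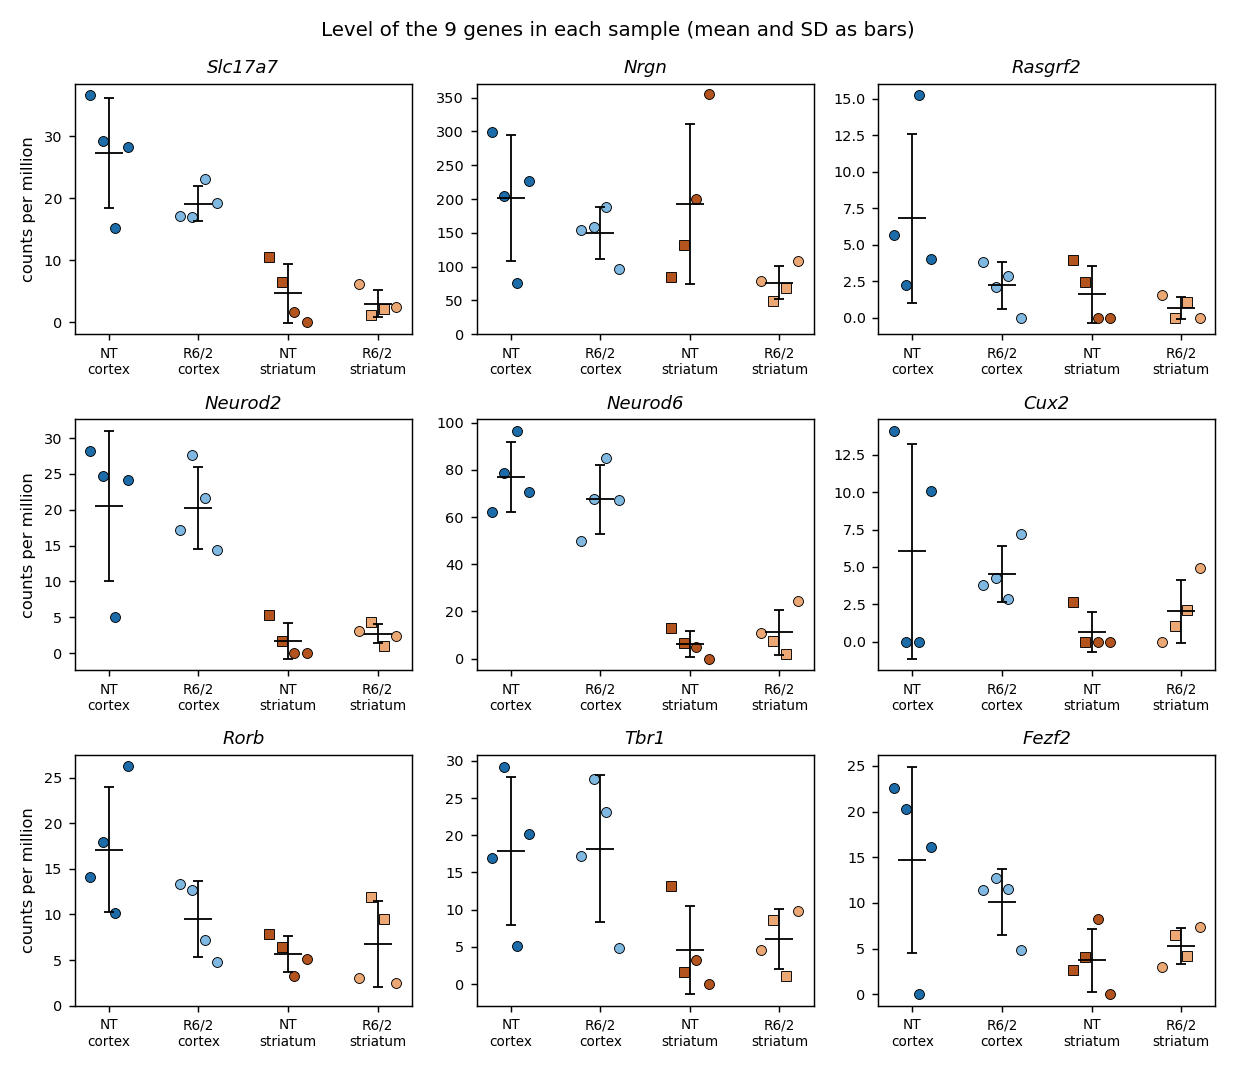
Level of each gene (CPM, y axis) in the 16 samples, with circles for samples with 1 set of counts, squares for samples with 2 sets, and bars for the mean and SD of the 4 samples of a group. Neurod6 lay between 49.7 and 96.6 CPM in the cortex and between 0 and 24.6 CPM in the striatum, whereas Nrgn overlapped between the regions.

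The upper-layer factors were read less. Cux2 stood at 14.1, 0, 0 and 10.1 CPM in NT cortex 1 to 4 and at 2.63, 0, 0 and 0 CPM in NT striatum 1 to 4. In R6/2 mice it lay between 2.89 and 7.21 CPM in the cortex and between 0 and 4.91 CPM in the striatum. With at most 5 reads per sample, its groups overlapped, and its log2 fold changes without the filter were -2.88 (SE 1.22, adjusted p = 0.12) in NT mice and -1.27 (SE 1.1, adjusted p = 0.63) in R6/2 mice. Rorb stood at 14.1, 18.0, 10.2 and 26.2 CPM in NT cortex 1 to 4 and at 7.89, 6.49, 3.28 and 5.08 CPM in NT striatum 1 to 4, which do not overlap. In R6/2 mice Rorb lay between 4.81 and 13.4 CPM in the cortex and between 2.46 and 11.9 CPM in the striatum, and the regions overlapped. The log2 fold change without the filter was -2.43 (SE 0.67, adjusted p = 0.004) in NT mice and -1.17 (SE 0.68, adjusted p = 0.38) in R6/2 mice, and the difference between these changes was not called (1.26, SE 0.70, adjusted p = 1). With the genomic class added, the change of Rorb in NT mice was -0.91 (SE 0.33, adjusted p = 0.038) and in R6/2 mice -0.53 (SE 0.31, adjusted p = 0.22).

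The deep-layer factors had few reads as well. Tbr1 stood at 16.9, 29.2, 5.08 and 20.2 CPM in NT cortex 1 to 4 and at 13.1, 1.62, 3.28 and 0 CPM in NT striatum 1 to 4. NT cortex 3 and NT striatum 1 made the groups overlap. The log2 fold change missed the threshold in both genotypes, at -2.07 (SE 0.83, adjusted p = 0.058) in NT mice and -1.86 (SE 0.75, adjusted p = 0.067) in R6/2 mice, and it passed in NT mice under 6 of 23 alternatives. Fezf2 stood at 22.6, 20.2, 0 and 16.1 CPM in NT cortex 1 to 4 and at 2.63, 4.05, 8.21 and 0 CPM in NT striatum 1 to 4. In the R6/2 samples Tbr1 lay between 4.81 and 27.6 CPM in the cortex and between 1.06 and 9.83 CPM in the striatum, and Fezf2 between 4.81 and 12.7 CPM and between 3.04 and 7.37 CPM. NT cortex 3 had no Fezf2 read, which allows up to 15.3 CPM. Without the filter the log2 fold change of Fezf2 was -1.49 (SE 0.64, adjusted p = 0.13) in NT mice and -0.65 (SE 0.63, adjusted p = 0.69) in R6/2 mice.

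**Figure D3:**
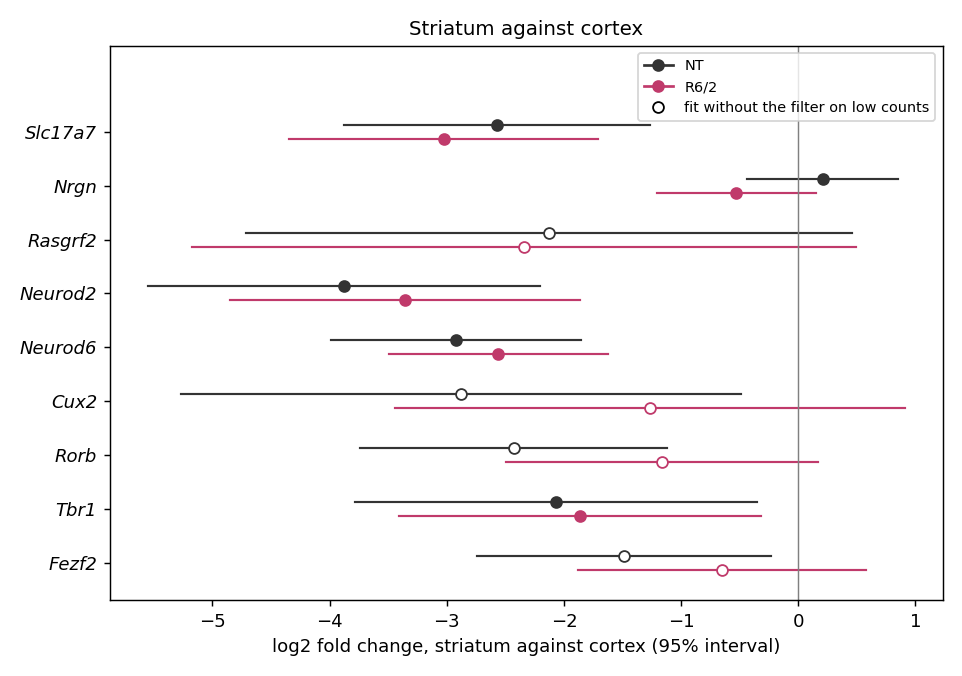
Log2 fold change of striatum against cortex (x axis, with the 95% interval as a line) for each gene, in NT (dark) and R6/2 mice (magenta). Open points come from the fit without the filter on low counts, and only Nrgn has a point above 0, at 0.21 in NT mice.

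In R6/2 mice the same 3 genes, Slc17a7, Neurod6 and Neurod2, were called lower in the striatum, and 14.3% of the 7390 genes tested were. Of all genes 1058 were lower and 956 higher there, against 811 and 1096 by DESeq2. The limit of the filter given for NT mice holds for the 3 genes in R6/2 mice too. The comparisons in NT and in R6/2 mice use separate samples but 1 fit with a shared spread. The summed level of the 8 genes other than Nrgn in the striatum was 15.3% ± 12.1 of the cortical mean in NT mice and 24.8% ± 8.69 in R6/2 mice (SD over 4 striatal samples). In single samples this share ran from 2.71% to 31.6% in NT striatum and from 15.4% to 35.7% in R6/2 striatum. The 2 ranges overlap. The number of sets moved with it in NT mice, and the NT mean over the striatal samples of 1 set was 7.05%.

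The other genes of the same cells followed the region in part. Of 10 other genes of excitatory neurons, 7 were tested and all 7 were lower in the NT striatum. Their median log2 fold change was -3.73, against -0.11 over all genes tested, and 6 of 7 were lower in the R6/2 striatum. Over all 7390 genes tested, 17.6% were called lower in NT and 14.3% in R6/2 striatum. Only 3 of the 10 passed the filter in the striatal samples alone, so the same limit of the filter holds here. In NT mice the smallest adjusted p-values were those of Mef2c, a transcription factor (log2 fold change -2.14, SE 0.22, adjusted p = 2.35e-07), Slc30a3, the zinc transporter of synaptic vesicles (-5.50, SE 0.58, adjusted p = 3.41e-07), and Emx1, a homeobox factor of the cortical lineage (-5.89, SE 0.69, adjusted p = 1.18e-06). The lists of layer genes did not move one way. Of 5 tested of 15 other upper-layer genes, 1 was higher in the NT striatum, Wfs1 (2.82, SE 0.42, adjusted p = 1.69e-05), and 1 lower, Lamp5 (-1.19, SE 0.19, adjusted p = 5.52e-05). Of 7 tested of 11 other layer 5 genes, 2 were higher and 2 lower, with Pcp4, a calmodulin-binding protein, at 3.73 (SE 0.25, adjusted p = 4.22e-10) and Bcl11b, a transcription factor of layer 5 and of striatal projection neurons, at 1.75 (SE 0.43, adjusted p = 0.0031). Of 5 tested of 13 other layer 6 genes, 2 were higher, among them Foxp2 (2.04, SE 0.43, adjusted p = 0.00071), and 3 lower, among them Rprm (-2.85, SE 0.36, adjusted p = 2.32e-06) and Sox5 (-3.16, SE 0.48, adjusted p = 2.5e-05). Wfs1, Pcp4, Bcl11b and Foxp2 are also known from striatal projection neurons. In R6/2 mice the counts were 2 higher and 3 lower of 5 for layer 6, 2 and 0 of 7 for layer 5, and 1 and 0 of 5 for upper layers.

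The effect of the R6/2 transgene in the cortex was tested next. None of the 4 genes that passed the filter was called in either direction, where 2.81% of the 6121 genes tested were lower and 0.457% higher by the same test. None of the 4 had an unadjusted p under 0.05 either, and none was called by DESeq2. Neurod6 had 111 reads in NT and 145 in R6/2 cortex, with a log2 fold change of -0.13 (SE 0.23, adjusted p = 0.83, 95% interval -0.60 to 0.34). Neurod2 changed by -0.13 (SE 0.36, adjusted p = 0.90, 95% interval -0.89 to 0.62). The groups overlapped for both genes.

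Slc17a7 and Nrgn had lower means in R6/2 cortex without passing the test. Slc17a7 averaged 27.3 ± 8.90 CPM in NT and 19.1 ± 2.84 CPM in R6/2 cortex (SD, n = 4), with overlapping groups and a log2 fold change of -0.55 (SE 0.32, adjusted p = 0.39, 95% interval -1.21 to 0.11). Nrgn averaged 201 ± 92.7 and 149 ± 38.4 CPM, with a log2 fold change of -0.45 (SE 0.27, adjusted p = 0.40, 95% interval -1.01 to 0.11). NT cortex 3 was lowest for Nrgn among the NT cortical samples. Without the filter, Rorb changed by -0.89 (SE 0.47, adjusted p = 0.54), Fezf2 by -0.60 (SE 0.47, adjusted p = 0.66), Cux2 by -0.55 (SE 0.72, adjusted p = 0.76) and Tbr1 by -0.02 (SE 0.40, adjusted p = 0.98).

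Rasgrf2 was called lower in R6/2 cortex once reads of the genomic class were added. It then stood at 27.3, 41.9, 53.3 and 37.9 CPM in NT cortex 1 to 4 and at 12.1, 22.9, 18.3 and 10.9 CPM in R6/2 cortex 1 to 4. The groups did not overlap. The log2 fold change was -1.22 (SE 0.31, adjusted p = 0.029), where 2.95% of the 7011 genes tested were called lower on that scale. Most of these reads are of the unspliced form of 3093 nt, with 48 reads in NT and 28 in R6/2 cortex, and on gene reads alone Rasgrf2 had 8 and 5. The added reads do not match a spliced Rasgrf2 transcript, so this value is of reads in the gene and not of its known isoforms. Slc17a7 on the same scale changed by -0.64 (SE 0.25, adjusted p = 0.18).

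Some genes of the other excitatory and layer lists were lower in R6/2 cortex, where 2.81% of the 6121 genes tested were called lower. Of 7 tested genes of excitatory neurons, 2 fell, Slc30a3 by 0.98 (SE 0.21, adjusted p = 0.011) and Nrn1, neuritin, by 0.91 (SE 0.24, adjusted p = 0.036) on the log2 scale. Of 3 tested upper-layer genes, 2 fell. Lamp5, a membrane protein of synaptic vesicles, fell by 2.11 (SE 0.20, adjusted p = 1.61e-06), from 269 to 423 CPM in NT cortex to 72.1 to 99.7 CPM in R6/2 cortex, and Calb1, a calcium buffer, fell by 0.73 (SE 0.19, adjusted p = 0.042). Of 6 tested layer 5 genes, 3 fell, Pcp4 by 0.79 (SE 0.19, adjusted p = 0.019), Crym, which binds thyroid hormone, by 0.99 (SE 0.25, adjusted p = 0.028) and Parm1 by 1.21 (SE 0.33, adjusted p = 0.044). Of 3 tested layer 6 genes none fell or rose. Pcp4, Crym and Calb1 are not restricted to the cortex, at means of 448, 96.6 and 568 CPM in NT cortex and 3839, 127 and 593 CPM in NT striatum, and Lamp5 and Calb1 are also known from interneurons. The list medians were -0.56, -0.73, -0.59 and -0.30, against 0.01 over all 6121 genes. These counts were small and moved when a sample was left out, to between 0 and 3 for excitatory genes, 1 and 3 for upper-layer genes and 0 and 3 for layer 5 genes over 15 alternatives, with no gene called higher. The excitatory count was 0 without NT cortex 2, without R6/2 cortex 2 and with ISM isoforms left out, and the layer 5 count was 0 without R6/2 cortex 2 or 3.

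Markers of other cells moved in the same samples, where 2.81% of all genes tested were called lower. In R6/2 cortex 3 of 6 interneuron markers and 2 of 3 tested markers of striatal projection neurons were lower, while 0 of 5 oligodendrocyte, 0 of 5 astrocyte and 0 of 3 microglia markers were called. The summed level of the striatal markers was 391 to 497 CPM in NT and 99.7 to 137 CPM in R6/2 cortex, that of the interneuron markers was 661 to 864 and 369 to 416 CPM, and that of the astrocyte markers was 722 to 1003 and 541 to 632 CPM. None of these 3 sums overlapped between the genotypes, and the median log2 fold change of the astrocyte list was -0.54. No marker of the 3 lists was at 0 in these groups. Their part in the changes of the layer genes was not tested.

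In the striatum, Nrgn was the only 1 of the 9 genes that passed the filter, and it was lower in R6/2 mice. It fell by 1.22 on the log2 scale (SE 0.24, adjusted p = 0.012, 95% interval -1.74 to -0.69), a 2.32-fold decrease, where 3.84% of the 7658 genes tested were called lower and 0.496% higher. By sample it stood at 84.1, 132, 200.3 and 356 CPM in NT striatum 1 to 4 and at 79.0, 49.7, 67.8 and 108 CPM in R6/2 striatum 1 to 4. R6/2 striatum 4 lay above NT striatum 1, so the genotypes overlapped. Samples of 1 set had higher levels than samples of 2 sets of the same genotype. They also had more mitochondrial reads (1.22% to 2.63% against 0.368% to 0.767%) and a shorter mean isoform (1589 to 1840 against 2125 to 2197 nt), and the part of these in the level of Nrgn was not tested.

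Within samples of the same number of sets the genotypes did not overlap. With 1 set, NT 3 and 4 had 200.3 and 356 CPM and R6/2 1 and 4 had 79.0 and 108 CPM, a log2 fold change of -1.53 (SE 0.33, adjusted p = 0.048). With 2 sets, NT 1 and 2 had 84.1 and 132 CPM and R6/2 2 and 3 had 49.7 and 67.8 CPM, a change of -0.92 (SE 0.29, adjusted p = 0.24). These 2 fits were chosen after seeing the data and rest on 2 samples against 2. Without the term for the number of sets the change was -1.34 (adjusted p = 0.34), without R6/2 striatum 1 it was -1.06 (adjusted p = 0.062) and without R6/2 striatum 4 it was -1.24 (adjusted p = 0.052). It was called under the other 14 of the 17 alternatives planned, at -1.37 to -1.01 over all 17.

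**Figure D4:**
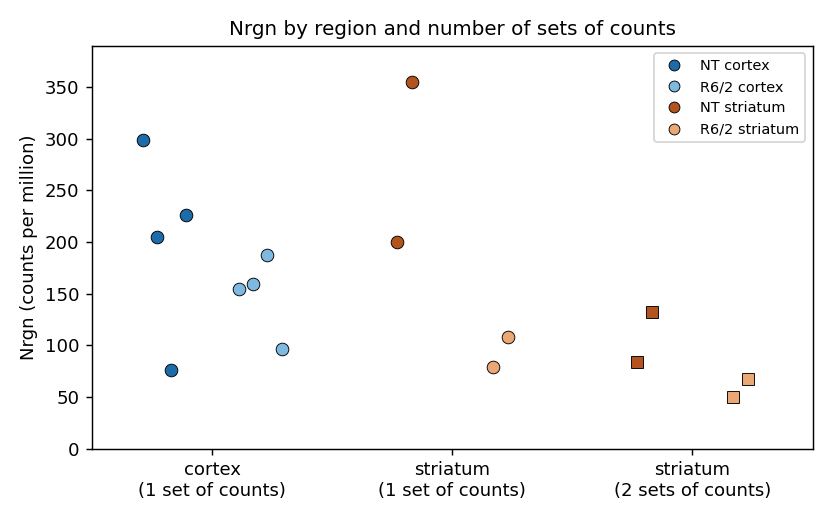
Level of Nrgn (CPM, y axis) by region and number of sets of counts, with 1 point per sample. Within each number of sets in the striatum, both NT samples lay above both R6/2 samples (200.3 and 356 against 79.0 and 108 CPM with 1 set, 84.1 and 132 against 49.7 and 67.8 CPM with 2 sets).

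Genes of the neurons of the striatum itself moved with Nrgn. Of 10 markers of striatal projection neurons, 7 were lower in the R6/2 striatum, at a summed 10641 to 14473 CPM in NT and 2003 to 3467 CPM in R6/2 mice, and none was at 0. The share called lower over all genes tested was 3.84%. Of the other lists, 0 of 5 tested interneuron markers, 1 of 5 oligodendrocyte markers, 0 of 5 astrocyte and 0 of 5 microglia markers were called lower. The interneuron markers summed to 1056 to 1290 CPM in NT and 683 to 787 CPM in R6/2 striatum, which do not overlap, with a median log2 fold change of -0.75. Choroid plexus markers summed to 9577 CPM in NT striatum 3, where the lowest NT sample had 39.4 CPM. The part of these markers in the change of Nrgn was not tested.

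The other cortical genes in the striatum had few reads. Without the filter, Slc17a7 changed by -0.95 (SE 0.67, adjusted p = 0.75), Neurod6 by 0.29 (SE 0.48, adjusted p = 0.85), Neurod2 by 0.45 (SE 0.91, adjusted p = 0.89), Rorb by 0.42 (SE 0.53, adjusted p = 0.83), Fezf2 by 0.28 (SE 0.62, adjusted p = 0.91), Tbr1 by 0.19 (SE 0.59, adjusted p = 0.93), Cux2 by 1.15 (SE 1.37, adjusted p = 0.83) and Rasgrf2 by -1.28 (SE 1.32, adjusted p = 0.83). None of these 8 was called, and the SEs of Neurod2, Cux2 and Rasgrf2 were near or above 1. Over all 7658 genes tested in the striatum, 3.84% were called lower. Of the other lists, 1 of 3 tested excitatory genes fell, Camk2a, a calcium-dependent kinase (-0.87, SE 0.19, adjusted p = 0.023), and 1 of 5 upper-layer genes, Wfs1 (-1.12, SE 0.26, adjusted p = 0.026). In the list of layer 5 genes 2 of 6 fell, Pcp4 (-1.68, SE 0.26, adjusted p = 0.0023) and Crym (-1.34, SE 0.20, adjusted p = 0.002), and in the list of layer 6 genes 1 of 4 fell, Syt6 (-0.90, SE 0.21, adjusted p = 0.028). Wfs1, Pcp4, Crym and Syt6 are not particular to the cortex. Their means were 144, 3839, 127 and 55.2 CPM in NT striatum, against 12.6, 448, 96.6 and 19.4 CPM in NT cortex. Over 17 alternatives the counts of called genes ran from 0 to 1 for each list except layer 5, from 0 to 3, and none was called higher.

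**Figure D5:**
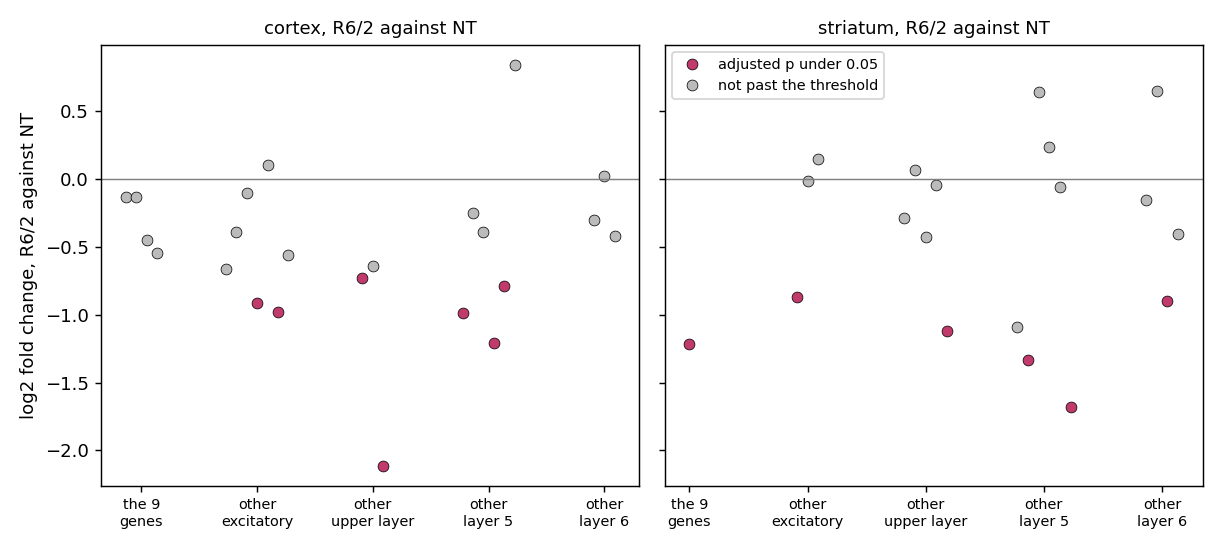
Log2 fold change of R6/2 against NT (y axis) in the cortex (left) and the striatum (right) for the genes that passed the filter, grouped by list along the x axis, with magenta for an adjusted p under 0.05. Of the 9 genes, 4 are shown in the cortex, none called, and only Nrgn in the striatum, at -1.22.

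Whether the transgene acts differently in the regions was tested as an interaction over all 16 samples. It was called for 3 of 7390 genes (0.0406%) and for none of the 5 tested of the 9 genes. For Nrgn the effect of R6/2 was lower in the striatum than in the cortex by 0.74 on the log2 scale (SE 0.40, adjusted p = 0.86, unadjusted p = 0.078, 95% interval -1.57 to 0.09), and the difference was not called. The 5 genes had unadjusted p-values between 0.078 and 0.82, and 430 genes had one under 0.05. DESeq2 called 7 genes and none of these 5. Of the lists, only Lamp5 was called, with an effect that was higher in the striatum by 1.72 (SE 0.25, adjusted p = 0.0031), at -2.11 in the cortex and -0.42 in the striatum.

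On complete isoforms, usage could be tested for Nrgn alone, and none of the 9 genes entered that test in the cortex. With ISM isoforms added, Tbr1, Slc17a7 and Nrgn were tested in the cortex, Nrgn in the striatum, and Fezf2, Tbr1, Slc17a7 and Nrgn between the regions. None was called, where over all genes 8 of 5222, 11 of 6667 and 427 of 8262 were, so with so few genes this says little about them. By edgeR's diffSpliceDGE, Nrgn had an adjusted p of 1 for R6/2 against NT striatum, where 0.451% of 4437 genes were called, and an adjusted p of 1 between the regions, where 1.44% of 5641 genes were called. The known Nrgn isoform held 95.7% ± 3.31 of complete reads in NT cortex, 94.0% ± 3.23 in R6/2 cortex, 93.8% ± 3.82 in NT striatum and 92.2% ± 7.58 in R6/2 striatum (SD, n = 4). Complete reads leave out ISM reads, and each sample had 6 to 151 of them for Nrgn. By a two-sided exact permutation test over 70 arrangements, p was 0.49 for genotype in the cortex, 0.71 in the striatum, 0.49 for region in NT mice and 0.71 in R6/2 mice, and adjusted over these 4 tests it was 0.71 for each. The lowest share was 82.2% in R6/2 striatum 2 and the highest was 100% of 6 reads in NT cortex 3. All complete Neurod6 reads, 111 and 145 in the cortex and 21 and 26 in the striatum, were of 1 isoform.

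The genes whose levels ran most like the 9 together over the 16 samples were Olfm1 (Pearson's r = 0.96), Stx1a (r = 0.94), Nfix (r = 0.94), Mef2c (r = 0.92) and Gnas (r = 0.91). The measure is the correlation of log2 CPM with the mean of the standardized log2 CPM of the 9 genes, among 4747 genes with at least 20 reads per sample on average. It is a description, and the samples fall into 2 regions, so it mostly follows the difference between them. Olfm1, for example, averaged 537 CPM in NT cortex, 369 in R6/2 cortex, 130.3 in NT striatum and 143 in R6/2 striatum. Within the 8 cortical samples the 5 most alike were Fam220a (r = 0.97), Ogfod2 (r = 0.97), Prkce (r = 0.97), Pcp4l1 (r = 0.94) and Actl6b (r = 0.93), and none of these is among the 5 over all samples. They are the highest of 4747 correlations over 8 samples and were not tested. Fam220a, Ogfod2, Prkce and Pcp4l1 averaged 21.6 to 23.8 reads per sample. Pcp4l1 averaged 60.8 CPM in NT cortex and 671 CPM in NT striatum. The mean weighs genes of few reads, such as Cux2 and Rasgrf2, like the rest.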

How the data were processed

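Iso-seq of polyadenylated RNA was measured in 16 samples. Per the study's methods, the authors made full-length reads, mapped them to mm10 with minimap2 (2.17-r941, named in the submitters' processing notes), ran TranscriptClean on them and used TALON to give each read an Ensembl or added isoform. cDNA was amplified without molecular identifiers, so reads are not independent molecules. The deposited values are counts, whole numbers of reads per isoform, unfiltered and not normalized. Where a striatal sample had 2 sets (4 samples), these were added up. A gene's count adds its NNC, NIC, ISM and known isoforms. The genomic, antisense and intergenic classes held 9.01% to 20.7% of reads per sample and were left out.

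Groups and replicate numbers come from the sample titles. Genes were tested with edgeR 4.0.16 (R 4.3.3; TMM, filterByExpr with a minimum count of 10, quasi-likelihood test) on all genes, with Benjamini-Hochberg adjustment at 0.05. Cortex and striatum were fitted apart for genotype, and all 16 samples together for region and interaction, with a term for the number of sets wherever striatal samples entered. Isoform usage was tested with diffSpliceDGE over complete isoforms with at least 10 reads. Shares of an isoform were compared by exact permutation where every sample had at least 5 complete reads, a limit set after seeing the data. CPM are computed here from the TMM-normalized libraries, with a prior count of 2 for log2 values. Intervals are at 95%.

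The 9 genes and the gene lists were chosen with earlier results of these data known. Named are all 9 genes, at most 3 genes of smallest adjusted p per other list and comparison, isoforms with at least 5% of complete reads in a group, and the 5 genes most alike in level. Lamp5, NT striatum 3 and the unspliced forms were singled out after their values were seen. Markers of thalamus (0 of 1 tested called in either genotype comparison) and choroid plexus (0 of 1) were counted with the other lists. Alternatives were upper-quartile normalization, DESeq2 1.42.0, no low-count filter, other isoform classes, the first set only, no term for sets, 1 fit for all samples, striatal samples of 1 set, a replicate block and leaving out each sample. The tests were tested on simulated counts with 200 changed genes. For 4-fold changes the share recovered was 87% for the cortex (5852 genes) and 92% for the striatum (7404 genes), and for 2-fold changes 53% and 65%. For region in NT mice (7059 genes) it was 90% and 31%. Of the genes called, 5 of 145 in the cortex, 12 of 169 in the striatum and 9 of 130 for region were false. The changed genes were drawn from all genes that passed the filter, so these shares do not describe genes with few reads. Positions are from GENCODE M21 and start windows from RefSeq. Python 3.11.15, pandas 2.3.3, numpy 2.4.6 and matplotlib 3.10.9 were used.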

Additional observations from a re-analysis of the deposited data

Results flagged for a closer look

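By Dixon's test, which chance passes in about 1 of 20 groups, a sample stood apart from the other 3 of its group in 6 of 86 groups tested, near the share that chance gives. Fezf2 was lowest in R6/2 cortex 4, at 4.81 CPM from 2 reads. The summed level of the 8 genes other than Nrgn was lowest in NT cortex 3, at 147 CPM, the sample with the fewest reads. The summed thalamus markers were also lowest in NT cortex 3, at 50.8 CPM. The summed markers of striatal projection neurons were lowest in R6/2 cortex 2, at 99.7 CPM. Choroid plexus markers were highest in NT cortex 4, at 966 CPM, and in NT striatum 3, at 9577 CPM. Lamp5 differed in its response to the transgene between the regions, with an effect in the striatum minus that in the cortex of 1.72 (log2, adjusted p = 0.0031 by edgeR's interaction test).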

How the results depend on the processing

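Of the 9 genes, 0 were called in R6/2 against NT cortex, 1 in the striatum, and 3 in each region comparison. The number became 1 in the cortex with the genomic class added, 0 in the striatum without the term for the number of sets or within striatal samples of 2 sets (chosen after seeing the data), and 5 for region in NT mice without the filter or with the genomic class. For region the number was also 4 in NT mice with striatal samples of 1 set and 4 in R6/2 mice without the filter. Leaving out a sample gave 0 to 1 in the striatum, 2 to 4 for region in NT mice and 3 to 4 for region in R6/2 mice. Nrgn was 0.21 higher in NT striatum on the log2 scale, fitted at 1 set of counts and not called. The direction reversed without the term for sets (-0.15), without NT cortex 3 (-0.013) and without NT striatum 4 (-0.13). The highest value on leaving out a sample was 0.63. Interaction values, none called, reversed for Slc17a7 (-0.46) to 0.78 with the genomic class, 0.076 with the first set and 2.26 with striatal samples of 1 set, and ran from -1.23 to 0.035 on leaving out a sample, with the reversal without R6/2 striatum 2. For Tbr1 (0.21) they ran from -0.41 to 1.48, below 0 without NT cortex 2, R6/2 cortex 4, NT striatum 2, R6/2 striatum 2 or R6/2 striatum 4, and for Neurod6 (0.36) from -0.078 to 0.89, below 0 without NT striatum 3 or R6/2 striatum 4. The share of the known Nrgn isoform, R6/2 minus NT, reversed with ISM reads added, from -1.67 to 11.3 percentage points in the cortex and from -1.60 to 4.01 in the striatum, where the first set only gave 0.71 and leaving out a sample gave -3.66 to 1.72. Striatum minus cortex changed from -1.90 to 2.30 in NT mice with ISM reads, and in R6/2 mice from -1.83 to -3.88 to 1.49 when a sample was left out. No share difference passed the test. The causes were not tested.

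Whether the replicate numbers pair the samples is not settled, and the main region tests use no pairing. In R6/2 mice same-numbered cortical and striatal samples 1 to 4 correlated at -0.003, 0.34, 0.381 and 0.204, and different numbers at 0.166 at most. In NT mice they correlated at -0.029, 0.206, 0.15 and -0.125, and different numbers at 0.285 at most. With the replicate block, 0 of the genes were called in the cortex, 1 in the striatum, 2 for region in NT mice, where Slc17a7 was at -2.18 (adjusted p = 0.055), and 3 in R6/2 mice. The level of Rorb in NT striatum, 33.2% of the cortex, was 46.1% without ISM isoforms. Between normalizations the median log2 fold change over all genes for region in NT mice moved from -0.11 to -0.02 with DESeq2. Over the alternatives named with the methods the number of all genes called lower ran from 86 to 223 in R6/2 cortex (172 as reported, 86 without R6/2 cortex 3), from 39 to 452 in R6/2 striatum (294, 131 without R6/2 striatum 2), and for region from 563 to 1323 in NT mice (1302) and from 414 to 1148 in R6/2 mice (1058), the lowest of the last 3 without the term for sets. Reads per sample limit Cux2 and Rasgrf2 most, at 26 and 21 reads in all.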
